A study of Oryctolagus cuniculus with 39 samples.

Results

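The comparison described here sets whole interscapular brown adipose tissue (BAT) of 12-week-old rabbits against the stromal vascular fraction (SVF) of the same depot and age. It uses 6 of the 39 labelled samples, 3 libraries of whole tissue (whole fat below) and 3 of the SVF, taken by their fraction, depot and age labels. Genes were kept where FPKM was 1 or more in at least 3 of these 6 libraries, which left 12158 of the 19625 genes present in both deposited tables. FPKM counts fragments per length of transcript and per mapped fragments of the library, so levels of different genes can be set side by side.

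The study followed the involution of BAT in rabbits by bulk RNA-seq of 36 libraries from day 1 to 12 weeks, and by 3 single-cell samples not analysed here. All animals were of the New Zealand White strain, and the labels give no treatment or genetic change. Whole fat holds fat cells and stroma together, while the SVF is what remains of the tissue once buoyant fat cells are removed. The same pair of fractions at day 1, again with 3 libraries each, served to test which differences changed with age.

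Brown fat burns fatty acids in its mitochondria and releases the energy as heat through the uncoupling protein UCP1. In involution the depot comes to look like white fat, whose cells hold a single large lipid droplet, make and store triglyceride, and secrete leptin and adiponectin. The stroma around them holds fibroblast-like progenitors that can become fat cells, together with vessels, immune cells and nerve sheath cells.

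The 2 fractions come from 2 tables that were normalized apart, so fraction and table cannot be told apart at 12 weeks and no p-value is given for that comparison. Differences are given on the scale log2(FPKM + 1) after median-ratio scaling of the 6 libraries, as whole fat minus SVF, with the standard error from the spread between libraries. A gene is called higher in a fraction where its 3 libraries all lie above the 3 of the other and the difference is at least 1 on that scale. Of the tested genes, 1707 (14.0%) were called higher in whole fat and 1889 (15.5%) higher in the SVF. These shares are the background for every count of listed genes called at 12 weeks. The median difference over all tested genes was 0.03, a value that median-ratio scaling holds near 0, and it was 0.37 with FPKM as deposited. Either call was met by 3596 genes (29.6%). Without any minimum size, the groups did not overlap for 8186 genes (67.3%), of which whole fat was the higher for 34.3% of tested genes and the SVF for 33.0%. In bulk RNA, more cells of a type and more RNA per cell cannot be told apart.

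Deposited FPKM summed to 465179 to 502402 per library over the shared genes, and 16214 to 17394 genes had a value above 0. The tables give no read counts. An estimate from the spacing of low FPKM values put the whole fat libraries at 1.19 to 1.32 times the depth of the SVF libraries. It rests on the commonest ratio, held by 38 to 60 of 739 to 855 genes per pair of libraries, and on tables that were made apart. Pearson's r across genes on the log2 scale was 0.969 to 0.978 within whole fat, 0.969 to 0.974 within the SVF and 0.735 to 0.81 between them, where genes are not independent replicates. Whole fat replicate 3 stood apart from the other whole fat libraries. It was the highest of the 3 for 1300 (68.8%) of the genes called higher in the SVF, against 37.6% of all tested genes. SVF replicate 3 held skeletal muscle transcripts, with ACTA1 at a scaled FPKM of 72.2 against 0.786 and 0.513, and SVF replicate 2 held the most of the endothelial and lymphocyte lists. Of 3 skeletal muscle genes that passed the filter, PYGM was called higher in whole fat (3.48), and without SVF replicate 3 all 3 were. Where leaving out 1 of these libraries changed a call named below, the call without it is given.

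All 16 adipocyte markers that passed the filter were called higher in whole fat, with a median difference of 4.3. ACVR1C passed the filter through whole fat alone, so it had to differ. Of the 25 listed, 7 were not found by symbol, and ADRB3 and TUSC5 stayed under the filter in both fractions. FABP4, the fatty acid carrier of adipocytes, had scaled FPKM of 16274, 24379 and 16185 in whole fat and 2658, 4203 and 4696 in the SVF. ADIPOQ, which encodes adiponectin, stood at 4726, 4886 and 4707 in whole fat and at 340.2, 512 and 280.3 in the SVF (3.70 ± 0.26, SE). LPL, the lipase that frees fatty acids from circulating lipoproteins, was at 6501, 4971 and 5096 against 208, 234 and 228. For each of these genes the lowest whole fat library was far above the highest SVF library.

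Adipocyte transcripts were present in the SVF at a low level, the median marker being at 4.31% of its whole fat mean. The share ran from 1.27% for ACVR1C to 20.3% for FABP4, with CD36, the fatty acid translocase, at 17.6% and PPARG, the master regulator of fat cell formation, at 9.06%. ACVR1C lay near the floor in the SVF, at a scaled FPKM of 0.05, 0.03 and 0.09. In every SVF library the listed adipocyte genes together made up 0.689% to 1.14% of summed FPKM, against 8.48% to 10.0% in whole fat. Whether remaining fat cells or stromal cells that express these genes gave this signal was not tested.

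**Figure D1:**
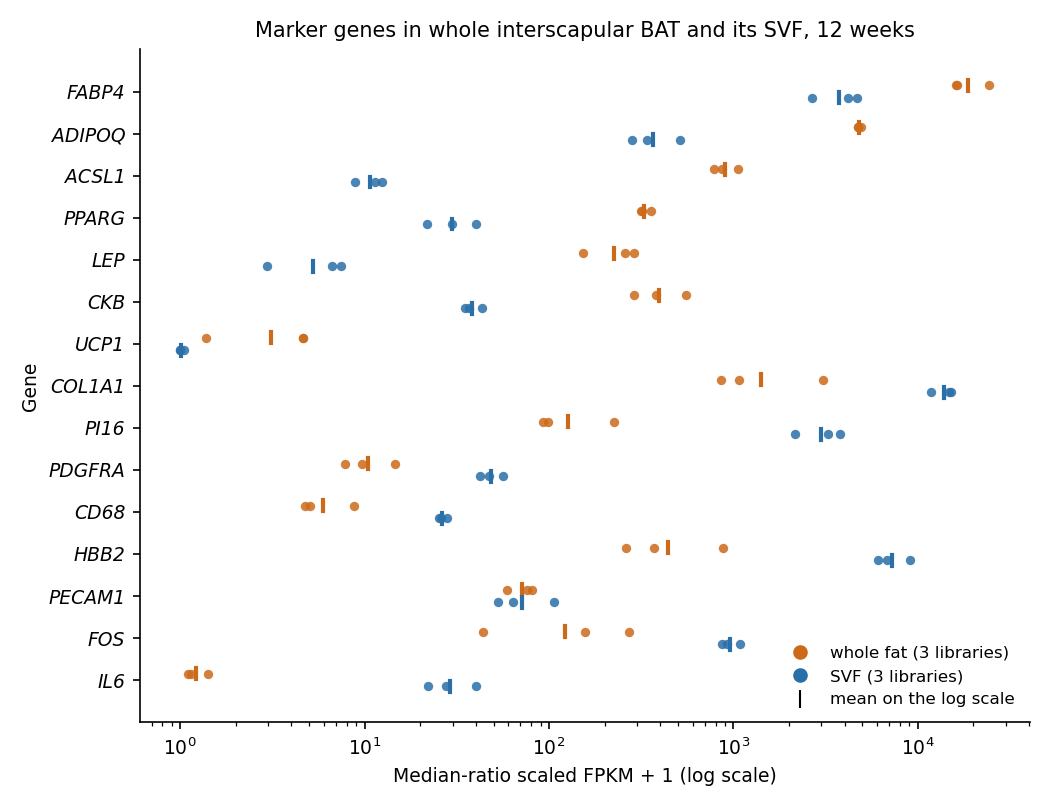
Scaled FPKM plus 1 (x axis, log scale) of 15 marker genes (y axis) in the 3 whole fat libraries (orange) and the 3 SVF libraries (blue) at 12 weeks; each point is a library and each short line the mean on the log scale. ADIPOQ and ACSL1 lie to the right in whole fat, COL1A1 and PI16 to the right in the SVF, PECAM1 overlaps, and UCP1 sits near the left edge in both.

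Lipid synthesis genes stood out in whole fat. All 17 genes of fatty acid and triglyceride synthesis that passed the filter were called higher there, with a median difference of 4.67, and FASN, SCD and AGPAT2 were not found by symbol. ACSL1 (gene ID 100354503), which activates long-chain fatty acids with coenzyme A, had the largest difference toward whole fat of the genes eligible to be named: 1054, 869.5 and 787 in whole fat against 11.4, 7.82 and 10.4 in the SVF, a difference of 6.38 ± 0.19 (SE). ACSS2, which makes acetyl-CoA from acetate, stood at 1364, 858 and 1195 against 34.2, 25.7 and 35.7. The 2 fractions were separated by at least an order of magnitude for both enzymes.

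THRSP, a regulator of lipogenesis also known as Spot 14, was at 1624, 1228 and 1774 in whole fat and at 36.1, 26.1 and 40.7 in the SVF (5.45 ± 0.25, SE). DGAT2, which adds the last fatty acid to triglyceride, was at 1638, 1423 and 1583 against 55.8, 53.9 and 64.9, and GPD1, which supplies the glycerol backbone, at 2202, 1757 and 1782 against 71.3, 46.3 and 56.6. ACACA, the acetyl-CoA carboxylase that commits carbon to fatty acid synthesis, was at 131, 64.2 and 90.2 against 6.80, 4.54 and 4.65. Citrate lyase ACLY differed by less, at 400, 207 and 484 against 97.1, 71.4 and 82.9 (2.03 ± 0.39, SE). The smallest difference was that of SREBF1, a transcription factor of lipid synthesis, at 58.0, 48.2 and 72.0 against 38.2, 23.4 and 26.0 (1.01 ± 0.27, SE). Its libraries did not overlap, but the difference lay at the minimum for a call and was below it under upper quartile scaling, scaled to the proteasome genes, and without whole fat replicate 3, SVF replicate 2 or SVF replicate 3.

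The acyl-CoA desaturases, which put a double bond into saturated fatty acids, appear in the tables as 5 genes without a named symbol. They were looked up by the description deposited with the SVF values, after values had been seen. Their sequences were not compared, and whether they share reads was not tested. LOC100346046 was the sixth most abundant transcript of whole fat, at 4312, 3174 and 3105 against 74.7, 70.1 and 63.0 in the SVF (5.64 ± 0.17, SE). LOC100357419 was at 90.6, 254 and 119.6 against 0.809, 1.69 and 0.879. The other 3 were also called higher in whole fat, by 4.72, 2.46 and 1.48. The gene with the difference of 2.46 passed the filter through whole fat alone, so it had to differ.

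Lipid droplet and lipolysis genes split into 2 groups. Of 10 that passed the filter, 7 were called higher in whole fat, none higher in the SVF, and the median difference was 2.44. CIDEA and CIDEC, which fuse lipid droplets, were at 1327, 1315 and 1540.4 against 58.2, 56.5 and 67.1, and at 288, 378 and 347 against 16, 17.5 and 17.9. LIPE, the hormone-sensitive lipase, was at 178, 190.1 and 208 against 8.37, 8.98 and 7.24. G0S2, an inhibitor of triglyceride breakdown, was at 67.2, 140.3 and 138 against 4.77, 5.22 and 8.91. By contrast PLIN2, a droplet coat protein found in many cell types, was at 43.4, 38.5 and 38.4 against 36.5, 34.7 and 39.9, so its groups overlapped. HILPDA also overlapped, and BSCL2 (seipin) was lower in whole fat without reaching the minimum (-0.51).

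Of the insulin response genes, all 13 passed the filter, 9 were called higher in whole fat and the median difference was 1.90. Among the 13, 1 passed through whole fat alone, so it had to differ. The insulin-regulated glucose transporter SLC2A4 was at 40.0, 31.6 and 46.4 against 1.88, 2.09 and 2.37, and PDE3B, the phosphodiesterase through which insulin restrains lipolysis, at 28.5, 24.2 and 17.7 against 0.671, 1.46 and 0.892. AKT2, a kinase of the insulin signal, differed by 1.90 and the adaptor IRS1 by 1.96. INSR, the receptor itself, differed by 1.14 and was below the minimum without whole fat replicate 1 and when scaled to the proteasome genes. The 4 that were not called were HK2, IRS2, SLC2A1 and PIK3R1, with differences of 0.31 to 0.58.

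Several of the genes with the largest differences toward whole fat encode receptors and signalling proteins. MC5R, a melanocortin receptor, was at 182, 247 and 210.4 against 1.75, 4.75 and 2.85 (5.76 ± 0.33, SE). KLB, the co-receptor for FGF21, was at 315, 279.5 and 277 against 5.46, 7.72 and 6.33 (5.29 ± 0.14, SE), and NPR3, the clearance receptor of natriuretic peptides, at 169.6, 189 and 134 against 2.27, 3.91 and 2.40 (5.43 ± 0.24, SE). PRKAR2B, a regulatory subunit of the cyclic AMP dependent kinase, was at 605, 395 and 361 against 8.88, 7.94 and 8.40 (5.56 ± 0.23, SE). In all 4 the whole fat libraries lay at least 4.78 above the closest SVF library on the log2 scale.

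MME, the membrane peptidase neprilysin, was at 470, 273 and 233 against 5.69, 5.10 and 3.96. The liver-type phosphofructokinase regulator PFKFB1 was at 119, 87.8 and 109.9 against 3.02, 1.01 and 1.48, and the cytochrome P450 CYP2B4 at 662, 527 and 541 against 13.4, 14.3 and 11.0. COX7B, a subunit of cytochrome oxidase, was at 326, 438 and 242 against 4.98, 5.38 and 8.75, a difference of 5.51 where no gene of the respiratory chain list exceeded 2.28. FABP7, a fatty acid carrier known from glia, was at 1874, 1124 and 1663 against 43.9, 14.1 and 46.5 (5.58 ± 0.58, SE). FABP7 stood in the Schwann cell list, of which 7 genes passed the filter and 4 were called in neither direction.

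Leptin and other secreted factors divided by fraction. LEP was at 151, 289 and 258 in whole fat and at 1.94, 5.63 and 6.45 in the SVF (5.42 ± 0.51, SE). RBP4, the plasma retinol carrier, was at 44.6, 32.7 and 59.2 against 2.71, 3.87 and 4.34, and SNCG, synuclein gamma, at 2511, 2822 and 2476 against 110, 100.2 and 101. On the SVF side were RARRES2, which encodes the chemoattractant chemerin, at 117, 121 and 128 in whole fat and 416, 274 and 554 in the SVF, and ANGPTL4, an inhibitor of LPL, at 5.93, 7.2 and 10.4 against 68.7, 59.4 and 87.4. The retinoic acid producing enzymes also divided, with ALDH1A1 higher in whole fat by 1.21, a call lost when scaled to the proteasome genes, and ALDH1A3 higher in the SVF, at 7.85, 9.11 and 16.5 against 131, 114 and 133. Of the 14 retinoid and adipokine genes tested, 6 were called higher in whole fat and 7 in the SVF, with a median of -0.42. Among the 14, 1 passed the filter through whole fat alone and 1 through the SVF alone.

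The label of brown fat was not borne out by UCP1 at this age. Deposited FPKM of UCP1 (gene ID 100328618) was 4.16, 4.21 and 0.44 in whole fat and 0, 0.05 and 0 in the SVF, against 5101.76, 5163.21 and 5779.82 in whole fat at day 1. It passed the filter in only 2 libraries and was not tested at 12 weeks. The deiodinase DIO2, the elongase ELOVL3, the potassium channel KCNK3 and the receptor ADRB3 were also under the filter, each below a scaled FPKM of 1 in all 6 libraries. Of 20 listed thermogenic genes, 18 were found and 10 passed, of which 4 were called higher in whole fat and 2 higher in the SVF, with a median of 0.60.

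CKB, the creatine kinase linked to a futile creatine cycle in fat, was at 289, 381 and 553 in whole fat and 34.1, 42.3 and 35.6 in the SVF. COX7A1, ESRRG and PPARGC1B were also called higher in whole fat, by 1.20, 1.36 and 1.45, the call of COX7A1 being lost when scaled to the proteasome genes. Of the 10 thermogenic genes tested, 3 passed the filter through whole fat alone, ESRRG and PPARGC1A among them, and 1, ZIC1, through the SVF alone. The deposited FPKM of these genes could not overlap, but the filter does not fix the size of a difference, and PPARGC1A was not called.

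PPARGC1A, the coactivator of mitochondrial formation, was at 1.06, 1.19 and 1.09 against 0.150, 0.136 and 0.115 without reaching the minimum. The members called higher in the SVF were 2 transcription factors used as marks of the brown lineage. LHX8 was at 3.27, 2.43 and 4.97 in whole fat and at 18.3, 15.4 and 22.5 in the SVF (-2.14 ± 0.28, SE), and ZIC1 at 0.484, 0.241 and 0.676 against 2.90, 3.13 and 3.12 (-1.48 ± 0.13, SE). EBF2, another factor of that lineage, overlapped at 12.6, 9.10 and 9.81 against 13.6, 11.9 and 14.3.

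Mitochondrial genes were higher in whole fat by smaller amounts than the lipogenic genes. Of 16 genes of fatty acid oxidation that passed the filter, 13 were called higher in whole fat and the median was 1.65; of 16 genes of oxidative phosphorylation, 13 were called and the median was 1.52. ACADL, the long-chain acyl-CoA dehydrogenase, was at 761, 852 and 728 against 58.2, 48.0 and 68.9, and HADH, a dehydrogenase of the same spiral, at 418, 377 and 338 against 50.7, 43.6 and 46.9. ATP5B, a subunit of ATP synthase, was at 529, 473 and 518 against 142, 147 and 184. COX4I1, by contrast, was at 422, 401 and 383 against 294, 293 and 358, without overlap but below the minimum.

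A single fatty acid oxidation gene was called higher in the SVF. FABP3, the heart-type fatty acid carrier, was at 5.04, 3.33 and 5.11 in whole fat and at 52.9, 26.7 and 44.7 in the SVF (-2.91 ± 0.33, SE). The proteasome genes, a set with no cell type, had a median of 0.45, with 3 of 30 called higher in whole fat and none in the SVF. Scaling the libraries to these genes, chosen after seeing the data, left 1181 genes higher in whole fat and 2584 in the SVF (31.4% and 68.6% of the calls, against 47.5% and 52.5%) and 9 of 16 oxidative phosphorylation genes called. With FPKM as deposited, 2841 were higher in whole fat and 1297 in the SVF (68.7% and 31.3%). No gene was called in the opposite direction under either, and the balance of calls between the fractions moved with the scaling.

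**Figure D2:**
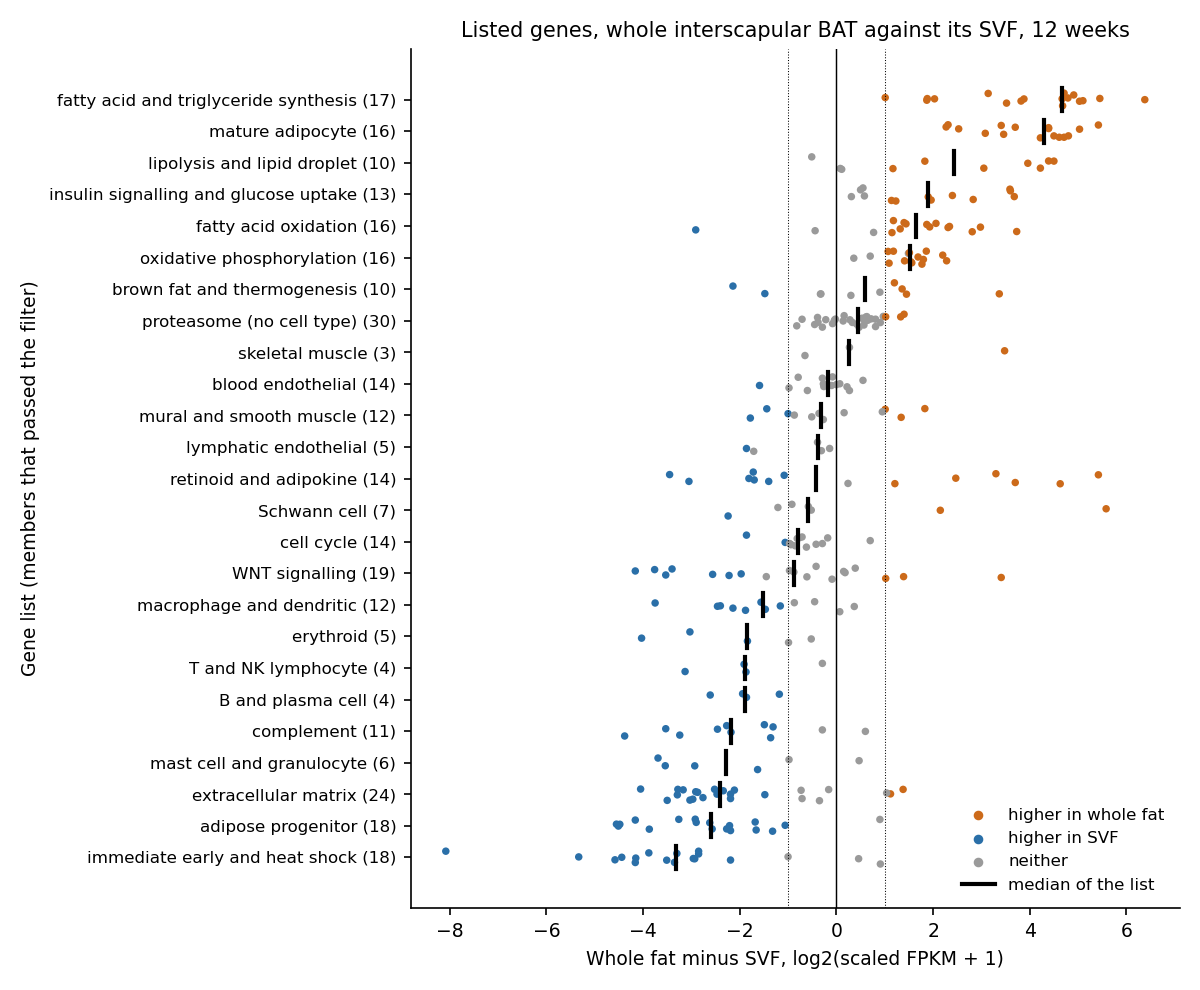
Difference of whole fat minus SVF at 12 weeks (x axis, log2 of scaled FPKM plus 1) for each listed gene that passed the filter, by gene list (y axis, number of genes in parentheses); orange points were called higher in whole fat, blue higher in the SVF, grey neither, and black lines mark list medians. Medians run from 4.67 for fatty acid and triglyceride synthesis to -3.33 for the immediate early and heat shock list, with the blood endothelial list near 0 (-0.18).

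Progenitor markers were higher in the SVF. Of 18 that passed the filter, 17 were called higher in the SVF and none in whole fat, with a median of -2.59. PI16, a mark of early fibroblast-like progenitors, was at 97.2, 91.8 and 224 in whole fat and at 3246, 3765 and 2151 in the SVF (-4.55 ± 0.48, SE). THY1, a surface antigen of mesenchymal cells, was at 29.0, 26.2 and 77.8 against 941, 765 and 997. PDGFRA, the receptor that defines adipose progenitors, was at 8.72, 6.87 and 13.7 against 55.4, 41.0 and 46.2, and DPP4, the surface peptidase of early progenitors, at 5.99, 4.47 and 9.66 against 60.2, 49.7 and 55.6. Whole fat replicate 3 was the highest whole fat library for each of these 4.

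DLK1, a secreted inhibitor of fat cell formation, spread widely within whole fat, at 7.82, 0.645 and 17.3, and was at 139.6, 111 and 198 in the SVF. The only progenitor gene not called was F3, tissue factor, at 55.1, 69.0 and 40.4 in whole fat and at 28.2, 22.5 and 35.5 in the SVF (0.90). Without whole fat replicate 3 or without SVF replicate 3, F3 was called higher in whole fat; the 17 calls toward the SVF became 16 without whole fat replicate 2 or SVF replicate 2, and the gene concerned was GSN. With FPKM as deposited F3 was called higher in whole fat, and GSN and PDGFRB were not called.

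Collagen and matrix genes gave the SVF its most abundant transcripts. Of 24 matrix genes, all of which passed, 17 were called higher in the SVF and 2 in whole fat, with a median of -2.41. COL1A1 was at 1071, 858 and 3043 in whole fat and at 15116, 11727 and 14723 in the SVF (-3.29 ± 0.57, SE). COL3A1 was at 1981, 1731 and 3357 against 17095, 13196 and 19804, and DCN, the collagen-binding proteoglycan decorin, at 1139.5, 1346 and 1722 against 10610, 7675 and 15689. TIMP1, an inhibitor of matrix proteases, was at 12.8, 17.1 and 33.9 against 332, 269 and 439 (-4.05 ± 0.45, SE). For COL1A1 the value of whole fat replicate 3 was far above the other 2 whole fat libraries and still below every SVF library.

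Genes of the basement membrane did not share a direction. COL4A1, a chain of the type IV collagen that surrounds fat cells and vessels, was at 465, 393 and 481 in whole fat and at 146, 278 and 122 in the SVF (1.38 ± 0.37, SE). COL15A1 was at 101, 60.0 and 94.2 against 31.6, 54.1 and 31.0 (1.12 ± 0.35, SE), and was not called without whole fat replicate 1, SVF replicate 1 or SVF replicate 3, or scaled to the proteasome genes. COL4A2 differed by 1.04 but overlapped, because SVF replicate 2 stood at 146 against a lowest whole fat value of 144. It was called higher in whole fat without whole fat replicate 2, without SVF replicate 2 and with FPKM as deposited. The laminins LAMA4 and LAMB1, also of the basement membrane, were higher in the SVF without reaching the minimum (-0.73 and -0.71).

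The matrix list made up 2.45%, 2.25% and 4.28% of summed FPKM in whole fat replicates 1 to 3 and 15%, 12.7% and 15.3% in the SVF. The 10 most abundant genes of each library held 12.3% to 13.6% of FPKM in whole fat and 18.9% to 22.9% in the SVF. Beside SPARC and the collagens, ADORA1 stood among them, at 4254, 4924 and 3979.9 in whole fat and 16144, 14287 and 23222 in the SVF; it was singled out for its abundance. Such a level is high for an adenosine receptor, and whether the reads belong to that gene was not tested.

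**Figure D3:**
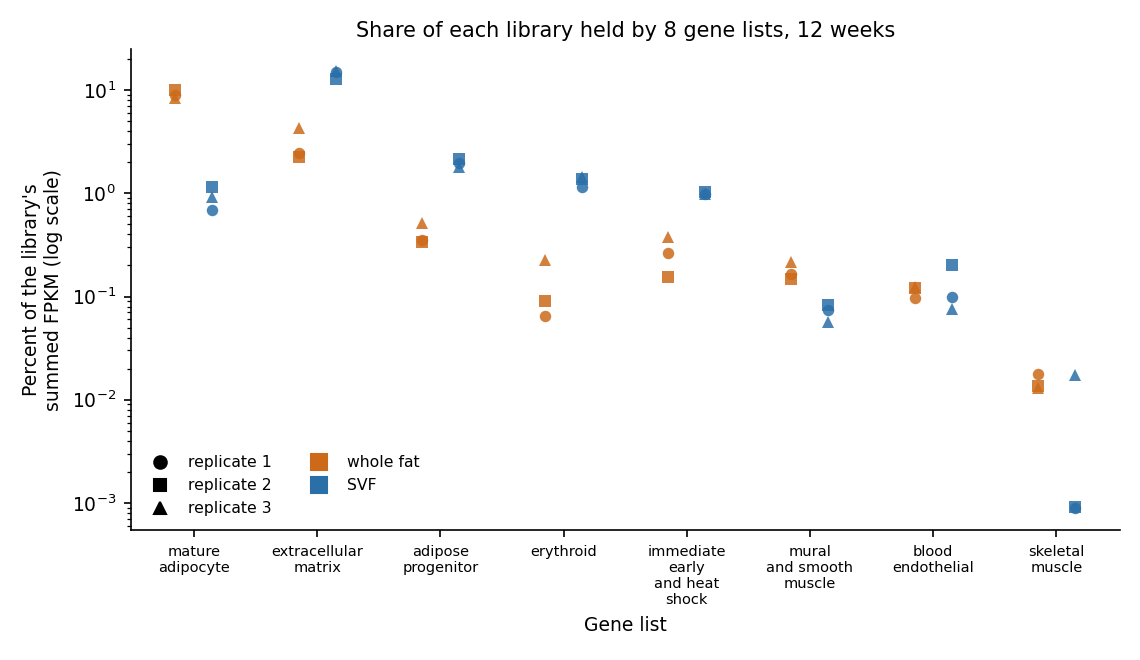
Percent of each library's summed deposited FPKM (y axis, log scale) held by 8 gene lists (x axis) at 12 weeks, with whole fat in orange, the SVF in blue and the symbol giving the replicate. Whole fat replicate 3 (triangle) is the highest whole fat library for the matrix (4.28%), progenitor (0.517%) and erythroid (0.225%) lists, and SVF replicate 3 the highest SVF library for skeletal muscle (0.0173%).

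Blood endothelial genes were mostly called in neither direction. Of 14 blood endothelial genes that passed the filter, 13 were not called, and the median was -0.18. PECAM1, an adhesion protein of all endothelium, was at 58.1, 79.7 and 74.5 in whole fat and at 62.9, 106 and 51.7 in the SVF, and CDH5, the endothelial cadherin, at 44.6, 49.4 and 58.6 against 44.9, 82.1 and 43.3. CLDN5, a tight junction protein, was the exception at 17.7, 32.3 and 32.7 against 51.9, 153 and 69.2 (-1.59 ± 0.54, SE). SVF replicate 2 was the highest SVF library for all 3. The median was 0.21 with FPKM as deposited and -0.48 scaled to the proteasome genes, and it was 0.14 without SVF replicate 2, so no direction is given for the list.

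Mural genes were mixed, with 3 of 12 called higher in whole fat and 3 higher in the SVF (median -0.32). MYL9, a myosin light chain of contractile cells, was at 437, 350.1 and 586 in whole fat against 124, 121 and 131, and the pericyte gene RGS5 at 117, 132 and 115 against 35.6, 78.4 and 37.9. KCNJ8 and ABCC9, the 2 subunits of the pericyte potassium channel, were higher in the SVF, KCNJ8 at 11.3, 15.1 and 17.3 against 54.1, 47.9 and 52.8. The third whole fat call was MCAM (1.01) and the third SVF call ACTA2 (-1.0), both at the minimum. MCAM was not called without whole fat replicate 2, SVF replicate 1 or SVF replicate 3, under upper quartile scaling, or scaled to the proteasome genes. ACTA2 was not called without whole fat replicate 1, whole fat replicate 2 or SVF replicate 1, or with FPKM as deposited. In the Schwann cell list, PMP22 was called higher in the SVF (-2.24) and S100B and FABP7 higher in whole fat. Of 5 lymphatic genes that passed, PDPN, which fibroblasts also express, was called higher in the SVF (-1.86).

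Immune genes were low in whole fat and higher in the SVF. Of 12 macrophage and dendritic genes that passed, 8 were called higher in the SVF (median -1.51). Without SVF replicate 2 there were 6, CSF1R and C1QC not being called. CSF1R was also not called without whole fat replicate 2 or with FPKM as deposited. ITGAM passed the filter through the SVF alone, so it had to differ. LYZ, lysozyme, was at 26.9, 35.1 and 60.4 in whole fat and at 415, 408 and 888 in the SVF, and CD68, a lysosomal protein of macrophages, at 3.78, 4.07 and 7.77 against 24.8, 26.8 and 24.2. The receptors of resident macrophages did not follow, with MRC1 at 8.79, 8.32 and 11.5 against 4.73, 7.29 and 10.0 and CD163 at 3.24, 2.63 and 4.92 against 2.52, 3.37 and 4.12. Both overlapped between the fractions.

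Lymphocyte and granulocyte markers were mostly below an FPKM of 1 in whole fat. Of 4 T and NK genes that passed, 3 were called higher in the SVF, as were all 4 B and plasma cell genes and 4 of 6 mast cell and granulocyte genes. Of these 14 genes, 8 passed the filter through the SVF alone. Their deposited FPKM could not overlap, so their count supports nothing further. JCHAIN, the joining chain of secreted antibodies, was at 4.23, 10.2 and 6.93 against 22.1, 82.2 and 53.1, and S100A9, a granulocyte protein, at 1.33, 2.87 and 3.81 against 51.8, 16.8 and 71.4. Red cell genes were also higher in the SVF, HBB2, a beta globin, being at 259, 371 and 879.6 against 6042, 6813 and 9031, and HBZ, annotated as zeta globin, at 16.3, 19.3 and 48.3 against 1057, 1193 and 1138. Of 5 erythroid genes that passed, 1 of them through the SVF alone, 3 were called higher in the SVF and none in whole fat. The erythroid list held 0.0654% to 0.225% of FPKM in whole fat and 1.14% to 1.43% in the SVF.

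The 2 largest named differences toward the SVF were those of CXCL8 and IL1B. CXCL8, a neutrophil chemokine, was at 0.194, 0.0344 and 0.111 in whole fat and at 286, 196 and 476 in the SVF (-8.08 ± 0.37, SE). IL1B, interleukin 1 beta, was at 0.247, 0.249 and 0.402 against 362, 273 and 431 (-8.08 ± 0.20, SE), and IL1A was listed at 0, 0 and 0.223 against 29.2, 32.7 and 46.1. Whole fat held almost none of these 3 transcripts, which passed the filter through the SVF alone.

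The chemokine CCL2, which attracts monocytes, was at 18.3, 13.2 and 31.8 against 555, 356 and 788, and CCL4, CCL7 and GRO-A, of the same family of signals, differed by -5.12, -4.66 and -4.96. HAS1, which makes hyaluronan, was at 0.423, 0.103 and 0.796 against 80.2, 52.7 and 63.7. HAS1 and CCL4 also passed the filter through the SVF alone, so they had to differ. PLEK, a protein of platelets and white cells, was at 1.07, 0.628 and 1.37 against 57.0, 44.5 and 46.6, and C13H1orf162 at 1.15, 0.602 and 1.07 against 101, 62.0 and 65.5. The immediate early gene IER3 was at 6.06, 6.71 and 10.0 against 263, 339 and 431 (-5.33 ± 0.28, SE).

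Of the 18 immediate early and heat shock genes that passed, 15 were called higher in the SVF and none in whole fat (median -3.33). Among them 2, CXCL8 and IL6, passed the filter through the SVF alone, so they had to differ. FOS was at 155, 42.6 and 269.5 in whole fat and at 866, 918 and 1087 in the SVF, and FOSB at 32.0, 3.13 and 63.3 against 246, 327 and 345. Whole fat replicate 2 was the lowest and replicate 3 the highest for both, while the SVF libraries were close together. IL6 was at 0.414, 0.103 and 0.154 against 21.2, 26.6 and 39.2. The heat shock genes HSP90AA1 and HSPH1 were not called, being higher in whole fat by 0.46 and 0.91 without reaching the minimum. Without SVF replicate 3, HSPH1 was called higher in whole fat. With FPKM as deposited, 1 gene of the list was called higher in whole fat. The transcripts of this list held 0.976% to 1.03% of FPKM in the SVF and 0.155% to 0.376% in whole fat at 12 weeks. Their part in the other differences toward the SVF was not tested.

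Complement and WNT pathway genes were tested as further lists. Complement genes, which encode the plasma defence cascade and its regulators, were called higher in the SVF for 9 of 11 that passed (median -2.18). C4BPA, an inhibitor of the cascade, was at 21.6, 14.6 and 36.5 in whole fat and at 461, 407 and 627 in the SVF, and SERPING1, the C1 inhibitor, at 61.1, 60.4 and 109.7 against 874, 827 and 899.6. With FPKM as deposited 6 of the 11 were called.

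WNT signals restrain fat cell formation. Of 19 genes of this pathway that passed, 1 of them through the SVF alone, 7 were called higher in the SVF and 3 in whole fat (median -0.88). Among ligands, WNT2 was at 3.56, 3.77 and 7.96 in whole fat and at 103, 95.5 and 111 in the SVF, and WNT10B at 1.34, 0.680 and 2.83 against 35.3, 19.4 and 30.0. The secreted antagonists SFRP4, at 20.5, 9.88 and 29.2 against 359.8, 185 and 263, and DKK2, at 11.3, 7.84 and 15.1 against 164, 114 and 108, were also on the SVF side. The receptor FZD4 was at 172, 244 and 139 in whole fat and at 13.1, 22 and 14 in the SVF (3.41 ± 0.32, SE), with LRP6 and WIF1 the other whole fat calls. WIF1 passed the filter through whole fat alone, and its call was lost without whole fat replicate 1 or SVF replicate 1. The transducer CTNNB1, beta-catenin, overlapped at 105, 115 and 108 against 88.4, 109 and 98.3. Of 14 cell cycle genes that passed, 1 of them through the SVF alone, RRM2 and CCNB1 were called higher in the SVF and none in whole fat. That count was 6 without whole fat replicate 3, 7 without SVF replicate 2, 4 without SVF replicate 1 and 1 without any other library.

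The change of these differences with age could be tested, because a constant effect of the table on a gene cancels when each fraction is compared with itself at day 1. The difference of whole fat minus SVF at 12 weeks was set against that at day 1 over 12 libraries with limma's interaction contrast and Benjamini-Hochberg adjustment over 13053 genes. It rose, toward whole fat, for 2021 genes (15.5%) and fell, toward the SVF, for 2389 (18.3%), so that 33.8% changed either way. These shares are the background for every count of listed genes that rose or fell. The median change was -0.03, a value that the scaling holds near 0. Here a gene is said to rise or fall where this difference did, whatever its level did in either fraction. Nothing in the labels says that libraries came from separate animals, so p-values measure the spread between these samples, which may be technical. Scaling in this section is over the 12 libraries, and levels differ slightly from those above. Whole fat libraries had 15663 to 15974 genes above 0 at day 1 and 17178 to 17394 at 12 weeks, and the part of that gap in the result was not tested.

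Oxidative genes lost most of their excess in whole fat. Of 16 fatty acid oxidation genes tested, 15 fell and none rose, the median difference being 4.88 at day 1 and 1.64 at 12 weeks. Of 16 oxidative phosphorylation genes, 15 fell and none rose, with medians of 4.14 and 1.5. ACADL was at 6379.9, 8077 and 6857 in whole fat at day 1 and at 754, 846 and 722 at 12 weeks, and at 66.1, 67.8 and 119 and then 58.6, 48.4 and 68.9 in the SVF; its difference fell by 2.72 (limma with Benjamini-Hochberg adjustment, adjusted p = 5.18e-05). ATP5B went from 2437, 2635 and 3323 to 524, 469.6 and 514 in whole fat and from 188, 172 and 184 to 143, 148 and 184 in the SVF. For both genes the whole fat libraries of the 2 ages did not overlap, and the SVF libraries moved little. In each list 15 of 16 genes also fell under upper quartile scaling and with FPKM as deposited.

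UCP1 was at 4836, 5184 and 6077 in whole fat at day 1 and at 3.63, 3.59 and 0.374 at 12 weeks. In the SVF it was at 21.2, 5.99 and 49.9 and then at 0, 0.0528 and 0, so that its difference went from 8.07 to 1.6, a fall of 6.47 ± 0.84 (SE, limma adjusted p = 0.000128). The 12-week difference is bounded by the pseudocount, since UCP1 was listed at 0 in 2 of the 3 SVF libraries; with a pseudocount of 0.1 the change of UCP1 was -4.14 (limma adjusted p = 0.0144). FABP3 had the largest fall, from 1862, 1465 and 1516 to 5.0, 3.30 and 5.07 in whole fat, while the SVF stayed at 48.5, 81.0 and 47.2 and then 53.3, 26.9 and 44.7. Its difference reversed from 4.79 to -2.93 (limma adjusted p = 2.22e-07).

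Of the other thermogenic genes, KCNK3, DIO2, PPARGC1A, COX7A1, ADRB3, EBF2 and PPARGC1B also fell, by 0.96 to 4.89, and TBX1 and CKB rose. Both rises were lost without whole fat day 1 replicate 1, whole fat 12-week replicate 3 or SVF day 1 replicate 2. The changes of LHX8 and ZIC1 were 0.13 ± 0.48 and -0.40 ± 0.27 (SE), and neither passed the test. GK, glycerol kinase, which lets brown fat reuse glycerol, was at 111, 139 and 139 in whole fat at day 1 and at 1.32, 1.61 and 2.21 at 12 weeks, with the SVF between 1.26 and 1.94 throughout. Its difference fell by 5.72 ± 0.22 (SE, limma adjusted p = 7.73e-08). QPCT, which modifies the ends of peptides, fell by 6.24, GMPR, an enzyme of purine interconversion, by 6.55, and BHMT2, a methyltransferase of homocysteine, by 5.53, each with a limma adjusted p of 8.03e-06 or less.

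**Figure D4:**
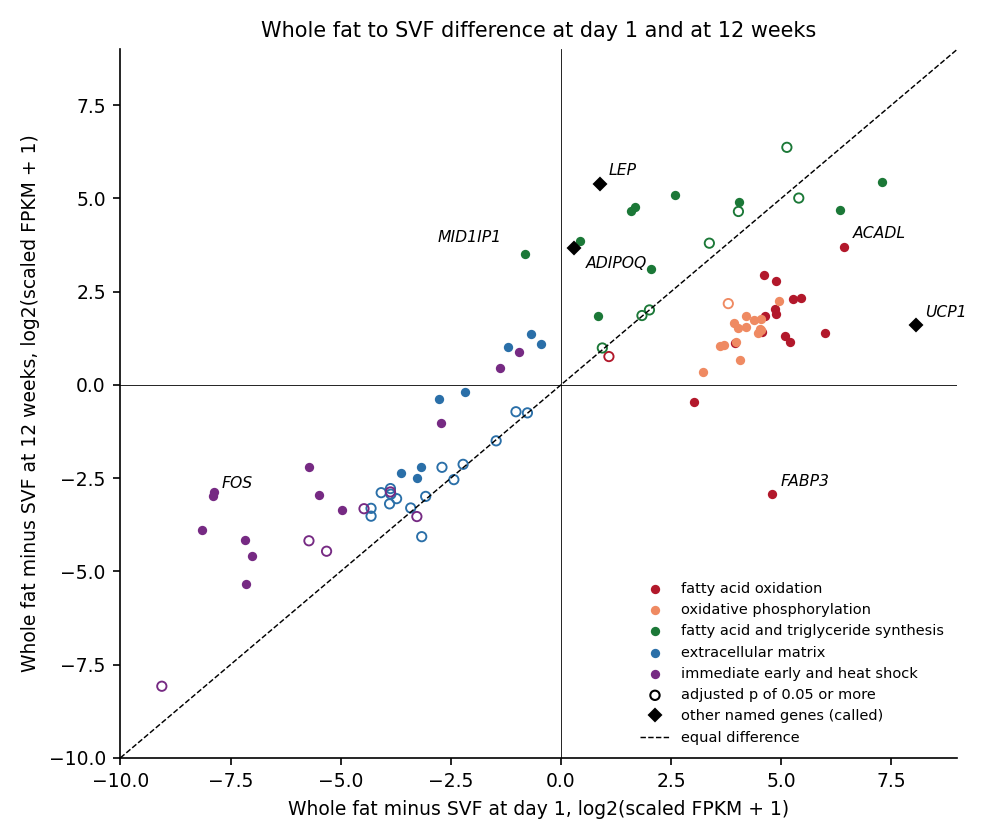
Difference of whole fat minus SVF (log2 of scaled FPKM plus 1) at day 1 (x axis) and at 12 weeks (y axis) for the genes of 5 lists (colours) and for UCP1, ADIPOQ and LEP (diamonds); filled points had a limma adjusted p under 0.05 for the change, open circles did not, and the dashed line marks an equal difference at the 2 ages. Oxidation and respiratory genes lie below the line (UCP1 at 8.07 and 1.6), while ADIPOQ (0.29 and 3.68) and the 12 immediate early and heat shock genes that rose lie above it.

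Lipogenic genes gained on the whole fat side. Of 17 synthesis genes tested, 8 rose and 2 fell, with a median change of 0.85 per gene; the median of the differences was 2.05 at day 1 and 4.65 at 12 weeks. ACACA was at 5.83, 7.23 and 9.54 in whole fat at day 1 and at 129.6, 63.8 and 89.5 at 12 weeks, and at 5.58, 5.57 and 4.61 and then 6.85, 4.58 and 4.65 in the SVF. Its difference rose by 3.44 (limma adjusted p = 1.92e-05). MID1IP1, a partner of acetyl-CoA carboxylase, went from 1.19, 0.773 and 0.631 to 147, 84.5 and 167 in whole fat and from 2.14, 2.23 and 2.44 to 11.9, 10.0 and 9.35 in the SVF, a rise of 4.32 in the difference. In both genes the fractions were close or overlapping at day 1 and apart at 12 weeks. The genes that fell were THRSP and DGAT2, by 1.86 and 1.64; both were higher at 12 weeks than at day 1 in each fraction, with the larger log2 gain in the SVF.

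Adipocyte markers did not move as 1 block. Of 17 tested, ADIPOQ, LEP and CEBPA rose and 6 fell, beside 15.5% and 18.3% of all tested genes. The median change was -0.43, although the median of the differences was 3.9 at day 1 and 4.2 at 12 weeks. Without SVF day 1 replicate 2, 5 rose. ADIPOQ stood at 465, 445 and 686 in whole fat and at 321, 371 and 651 in the SVF at day 1, where the fractions overlapped, and at 4683, 4849 and 4669.6 against 343, 516 and 280.1 at 12 weeks. Its difference rose by 3.39 ± 0.40 (SE, limma adjusted p = 6.87e-05). LEP was at 1.22, 1.23 and 0.389 in whole fat at day 1 and at 149.7, 287 and 256 at 12 weeks. The change of LEP was 4.51, and 2.77 with a pseudocount of 0.1, its day 1 SVF values being 0.0286, 0 and 0.0494. Of 10 droplet and lipolysis genes the difference fell for 5 and rose for FITM2. The median change of their levels was 0.82 in whole fat and 1.05 in the SVF (log2). For PLIN2, at a mean of 343 in whole fat at day 1 and 39.8 at 12 weeks, the difference fell by 1.94.

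Other large rises came from genes that stood in no list. PEG10, an imprinted gene, was at 8.19, 8.38 and 10.7 in whole fat and at 56.3, 61.3 and 60.1 in the SVF at day 1, and at 26.9, 51.0 and 21.2 against 1.96, 2.25 and 2.39 at 12 weeks. Its difference reversed from -2.59 to 3.32 (limma adjusted p = 6.82e-07). SFRP5, a secreted WNT antagonist, was at 1.36, 1.00 and 0.526 in whole fat at day 1 and at 63.4, 94.7 and 116 at 12 weeks, a rise of 5.11 ± 0.37 (SE) in the difference. ITGA7, a laminin receptor, went from 11.3, 6.90 and 6.42 to 188, 154 and 264 in whole fat and stayed between 9.24 and 14.7 in the SVF. PGAM2, the muscle-type phosphoglycerate mutase, rose by 5.27 ± 1.54 (SE, limma adjusted p = 0.0196), with SVF values at day 1 of 49.1, 54.8 and 0.504. The skeletal muscle list held 0.328%, 0.402% and 0.00517% of FPKM in the same 3 SVF libraries, and the part of muscle RNA in the change of PGAM2 was not tested.

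Among stromal lists, matrix genes rose for 8 of 24 and fell for none, the median difference going from -3.12 to -2.42. COL4A1 was at 376, 293 and 375 in whole fat and at 678, 400.3 and 628 in the SVF at day 1, and at 461, 389.7 and 477 against 147, 280.1 and 122 at 12 weeks, so that the order of the fractions reversed. With FPKM as deposited 14 matrix genes rose, and 5 did without whole fat 12-week replicate 3 or without SVF 12-week replicate 3. For mural genes the difference rose for 8 of 12 and fell for KCNJ8. The median change of their levels from day 1 was -0.21 in whole fat and -1.34 in the SVF (log2). The difference rose for 6 of 10 Schwann cell genes. That count ran from 4 to 9 with single libraries left out, the 9 being without SVF 12-week replicate 1. Levels of the Schwann cell genes had a median change of -0.28 in whole fat and -1.81 in the SVF.

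Of the 18 progenitor genes 2 rose and 4 fell, which is near the 15.5% and 18.3% of all tested genes. Their median differences were -2.79 and -2.60 at the 2 ages. With FPKM as deposited 4 rose and 3 fell. DPP4 had the largest fall of the list, from 17.6, 29.3 and 24.2 in whole fat and 15.8, 19.7 and 15.5 in the SVF at day 1 to 5.93, 4.44 and 9.58 against 60.7, 50.1 and 55.5 at 12 weeks (-3.37, limma adjusted p = 1.64e-05). Its fractions overlapped at day 1 and were apart at 12 weeks.

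Of 13 macrophage and dendritic genes tested, 4 rose and none fell, with a median change of 0.45. MRC1, a receptor of resident macrophages, was at 8.99, 12.9 and 14.4 in whole fat and at 80.2, 87.5 and 92.3 in the SVF at day 1, and at 8.71, 8.26 and 11.4 against 4.76, 7.34 and 10.0 at 12 weeks; its difference rose by 3.12 (limma adjusted p = 2.45e-05). CD163 rose by 2.99, and CSF1R and SPP1 were the others that rose. CSF1R was still called higher in the SVF at 12 weeks, a call lost under the settings named above. JCHAIN fell by 2.86 and C4BPA by 2.04, each with a larger log2 gain with age in the SVF than in whole fat.

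Immediate early genes differed most at day 1. Of 18 genes of that list, 12 rose and none fell, the median difference going from -5.61 to -3.34. EGR1 was at 1.87, 2.84 and 3.30 in whole fat and at 886, 858 and 796 in the SVF at day 1, and at 131, 42.0 and 263 against 841, 851 and 811 at 12 weeks. FOS was at 1.11, 1.41 and 1.85 against 572, 555 and 620.3, and then at 154, 42.3 and 267 against 872, 925 and 1086. Their differences rose by 5.0 and 4.92 (limma adjusted p = 0.000132 and 0.000166), and the rise lay in whole fat, where the 3 libraries at 12 weeks also spread the most. The list held 0.0569% to 0.0658% of FPKM in whole fat and 1.37% to 1.53% in the SVF at day 1.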

How the data were processed

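The 2 deposited tables held gene-level FPKM, per the file headers, one for whole interscapular BAT and one for the SVF, each normalized on its own by the authors. HISAT2 2.0.4, Bowtie2 2.2.5, DESeq2 and the build OryCun2.0 are named in the submitters' processing notes; the quantification tool and annotation are not given in the sources used here. All 36 value columns were mapped to samples by name and 0 were left over. The tables held 20589 (SVF) and 20183 (whole fat) genes, of which 19625 were in both, with identical transcript lists. Symbols came from the SVF table, and 619 placeholders were replaced from RefSeq (mOryCun1.1, names alone), which held 17003 (86.6%) of the gene IDs. No read counts were available, so no interval from counting can be given.

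FPKM were divided by median-ratio size factors (0.785 to 0.955 in the SVF, 1.136 to 1.168 in whole fat) and taken to log2 with a pseudocount of 1, a scale that understates changes of low genes. A minimum of 1 in 3 libraries was required; 765 of the tested genes passed through a single fraction (507 whole fat, 258 SVF), among them 23 of 308 listed genes. At 12 weeks differences were described with no test. The change since day 1 was fitted with limma 3.58.1 in R 4.3.3, with a variance trend, and called at an adjusted two-sided p under 0.05. Both steps were tested on simulated data.

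Named genes are the 12 with the largest called difference in each direction and the 6 with the largest called change in each direction, all with a symbol and a scaled mean FPKM of at least 10 in a group, and listed genes. Members and the 26 lists were chosen with earlier results of these data known. Of the mesothelial list, 5 of 8 genes were found and none passed the filter at 12 weeks. In the change, 1 was tested, KRT8, and its difference rose. Its own change from day 1 on the log2 scale was -0.67 in whole fat and -1.67 in the SVF.

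Same-numbered libraries of the 2 fractions deviated together at 12 weeks (correlations 0.395, 0.253 and 0.122) and at day 1 (0.195, 0.348 and 0.088). Other pairs gave -0.256 to -0.007 at 12 weeks and -0.241 to 0.046 at day 1. Deviations from a mean of 3 libraries are not independent, so these values cannot settle whether libraries are paired. A replicate block was run as an alternative, with pairs at both ages linked by their number in the labels. The standard errors at 12 weeks do not use this link. Other alternatives were FPKM as deposited, upper quartile scaling, a pseudocount of 0.1, other filters, a minimum difference of 2 and each library left out; scaling to the proteasome genes was chosen after seeing the data.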

Additional observations from a re-analysis of the deposited data

Results flagged for a closer look

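The change of the whole fat to SVF difference from day 1 to 12 weeks was tested by the interaction term in limma, and by that test 2021 genes rose and 2389 fell. Among the named genes the change was 5.90 for PEG10, 5.27 for PGAM2, 5.11 for SFRP5, 5.0 for EGR1, 4.92 for FOS and 4.53 for ITGA7. It was -7.72 for FABP3, -6.55 for GMPR, -6.47 for UCP1, -6.24 for QPCT, -5.72 for GK and -5.53 for BHMT2. The sign of the difference was opposite at the 2 ages, and beyond 1 on the log2 scale at both, for PEG10, PGAM2, SFRP5, FABP3 and QPCT among these 12 genes.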

How the results depend on the processing

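Counts of genes depended on the scaling between the tables and on the minimum size. With FPKM as deposited, 2841 genes were higher in whole fat at 12 weeks, and the interaction called 3603 rises and 1381 falls, with the median of all genes shifted to 0.37 at 12 weeks and 0.32 for the change. A minimum difference of 2 left 521 genes higher in whole fat and 635 in the SVF, and an added minimum of 1 left 1262 rises and 1484 falls. With the replicate block the counts were 1721 and 1918 at 12 weeks and 1998 and 2370 for the change; the paired fit moved neither count by over 1.5 times. Among the lists, it moved the falls of the T and NK list from 2 to 4, of the erythroid list from 0 to 3 and of the proteasome list from 8 to 5, and the muscle list from 0 to 2 rises and 1 fall. Leaving out single libraries gave 1678 to 1868 genes higher in whole fat, 1771 to 2020 higher in the SVF, 1686 to 1915 rises and 2101 to 2409 falls. No gene called at 12 weeks was called in the opposite direction under any alternative. Of the proteasome genes, 1 rose and 8 fell in the change, but 8 rose and 1 fell with FPKM as deposited. Genes near an FPKM of 1 are limited by depth, which the tables do not give.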
